A study of Mus musculus with 32 samples.

Results

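The genes described here carry glucose into the heart muscle cell, break it down to pyruvate and lactate, or store it as glycogen. They were taken by name from a list of 34 genes: glucose and lactate carriers, the enzymes of glycolysis and their isoforms, and the enzymes of glycogen synthesis and breakdown. A gene was measured where a probe set on either of 2 Affymetrix array types was annotated to that gene alone, and the probe set of highest mean log2 signal stood for it. Of the 34 genes, 30 had such a probe set, out of 13660 genes named on the arrays, and 24 of the 30 were bright enough to be tested. Gpi1, Eno1, Gapdh and Pfkfb1 had none and were not analysed here, apart from the Gapdh control probe sets.

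Total RNA of the mouse cardiac ventricle was measured in wild type mice and in mice with a cardiac specific AT1 transgene, which were sampled either in hypertrophy or in failure. Each array type held 5 wild type, 8 hypertrophy and 3 failure arrays. Both diseased groups carry the transgene, so transgene and disease cannot be told apart against wild type, and only failure against hypertrophy compares transgenic samples with each other. AT1 is the common short name of an angiotensin II receptor; the labels use it without further words and name neither the promoter nor the line. They give no age, sex, strain, surgery or drug, and leave unsaid whether each array stands for an animal of its own. The p-values therefore measure only the spread between these samples, which may be technical.

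The adult heart draws most of its energy from fatty acids and takes up glucose mainly through the insulin-responsive carrier GLUT4, while GLUT1 serves basal uptake and dominates before birth. Inside the cell glucose is trapped by hexokinase and then either passes down glycolysis, with phosphofructokinase as the main control point, or is stored as glycogen, which phosphorylase breaks down again. Many steps exist as isoforms that differ between tissues and developmental stages, and overloaded hearts are known for a partial return to the fetal pattern of fuel use.

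A change was called when its Benjamini-Hochberg adjusted p in the limma fit was under 0.05, and differences are given on the log2 scale with their standard error (SE). None of the 24 tested genes was called in any of the 3 comparisons. The values furthest from wild type were those of Ldhb, Eno3, Hk2 and Pygb in failure. Ldhb, the heart form of lactate dehydrogenase, was at 0.553 times its wild type level, Eno3, the muscle form of enolase, at 0.595 times and Hk2, the insulin-regulated hexokinase, at 0.663 times. Pygb, the brain form of glycogen phosphorylase, was at 1.94 times. The next above wild type was Slc2a1, which encodes GLUT1, at 1.31 times. Ratios between isoforms on the same array were compared apart from the single genes. The ratio of Pygm to Pygb was lower in failure than in hypertrophy (adjusted p = 0.0455, exact permutation test), a call that was lost without hypertrophy replicates 6 and 7 (adjusted p = 0.134) and without any 1 hypertrophy or failure array. Its unadjusted p in that test, 0.00606, was already the smallest possible, and fewer arrays raise that limit, so these losses cannot show whether the ratio is stable. With each array left out the difference was -1.47 to -1.17. The adjustment also counts ratios given only as descriptions, 1 of them with a smaller p, and an adjustment without them was not tested.

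The regions before the start sites of the 4 genes with the lowest unadjusted p in failure against wild type are shown to let a reader look for shared control letters. Each run holds the 250 bases before the start, 5′ to 3′ on the gene's strand, from RefSeq on build GRCm38.p6. Capitals mark matches, on either strand, to 4 short motifs: ACGTG, the core bound by hypoxia-inducible factors, GGGCGG, the GC box, AAGGTCA, the core bound by estrogen-related receptors, and CATTCC, the M-CAT element of muscle promoters.
Eno3, chr11:70656926-70657175, plus strand: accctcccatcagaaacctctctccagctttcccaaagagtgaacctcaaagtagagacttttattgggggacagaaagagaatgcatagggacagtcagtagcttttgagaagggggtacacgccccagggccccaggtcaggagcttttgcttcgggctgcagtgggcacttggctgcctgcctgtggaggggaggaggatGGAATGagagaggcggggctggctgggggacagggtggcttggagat
Ldhb, chr6:142507958-142508207, minus strand: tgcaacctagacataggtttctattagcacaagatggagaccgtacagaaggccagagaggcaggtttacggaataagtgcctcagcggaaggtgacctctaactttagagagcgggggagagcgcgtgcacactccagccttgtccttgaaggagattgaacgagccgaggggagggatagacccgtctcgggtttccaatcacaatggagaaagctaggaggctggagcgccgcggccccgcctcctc
Hk2, chr6:82774455-82774704, minus strand: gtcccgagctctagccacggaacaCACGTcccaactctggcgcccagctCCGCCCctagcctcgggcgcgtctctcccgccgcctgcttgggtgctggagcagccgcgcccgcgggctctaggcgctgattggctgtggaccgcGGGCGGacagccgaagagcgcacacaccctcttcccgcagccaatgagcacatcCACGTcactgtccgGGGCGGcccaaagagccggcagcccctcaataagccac
Pygb, chr2:150786546-150786795, plus strand: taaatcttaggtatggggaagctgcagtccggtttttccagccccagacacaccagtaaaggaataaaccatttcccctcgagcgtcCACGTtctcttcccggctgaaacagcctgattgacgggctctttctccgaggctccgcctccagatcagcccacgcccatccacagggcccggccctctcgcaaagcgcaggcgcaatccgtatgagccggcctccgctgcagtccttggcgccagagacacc
Hk2 held 2 matches to ACGTG and 3 to GGGCGG, Pygb held 1 match to ACGTG, Eno3 held 1 to CATTCC read on the other strand, and Ldhb held none of the 4. No motif was found in the windows of all 4 genes. Over the 41 start sites listed for 29 of the 30 measured genes, ACGTG was present in 41.5% of windows, against 16.6% of all 32851 windows of the same length. GGGCGG was in 46.3% against 32.7%, AAGGTCA in 0.0% against 4.08% and CATTCC in 9.76% against 12.6%. Some genes have several windows. Counted by gene, ACGTG was found for 14 of the 29, GGGCGG for 17, AAGGTCA for 0 and CATTCC for 4. No share by gene over all genes stands beside these counts. These matches are descriptions of letters and were not weighted for base composition. Slc2a4 was not in the table of start regions.

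The array checks that touch these genes are as follows. Array medians lay between 91.8 and 121 on the first type, and between 69.3 and 80.6 on the second. The 5′ Gapdh control read 0.806 to 1.11 of the 3′ one on the first type except in hypertrophy replicate 6, at 0.468, and replicate 7, at 0.0487, and results were recomputed without these arrays. Among wild type arrays 3 of 5 had less Xist, which marks the inactive X, than Eif2s3y, a Y-linked gene, as did 4 of 8 in hypertrophy and 1 of 3 in failure. Among the markers listed for other cells, the 8 fibroblast genes had a median difference of 0.82 in failure against wild type, with 7 of 8 positive. The 3 tested atrial genes did not move together, with Myl7 at 1.6, Nppa at 1.26 and Myl4 at -0.61. No gene of these lists was called. The 9 cardiomyocyte markers, which fit the labelled tissue, had a median of 0.025, and the 7 of them on the first type had a mean log2 signal of 11.87 to 12.34. Skeletal muscle markers, which share several isoforms with the genes here, had a median of 0.016 over the 4 tested of 9 listed, with mean log2 signals of 8.38 to 8.72. Of the 4, 2 were positive, and the lowest was Myh4 at -0.58 (SE 0.21, adjusted p = 0.335). No listed marker of any type was below the floor on all arrays. In whole ventricle, fewer cells of a type and less RNA per cell cannot be told apart.

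Glucose enters through GLUT4, encoded by Slc2a4, and GLUT1, encoded by Slc2a1. Slc2a4 read 705, 645, 811, 726 and 842 signal units in wild type and 260 to 727, median 559, in hypertrophy. In failure it read 403, 439 and 1039. The groups overlap, with 5 hypertrophy arrays and failure replicates 1 and 2 below the wild type range, and failure replicate 3 above it. The 5 were replicates 1, 4, 5, 6 and 7, which also read 170 to 419 in an opposite-strand control of the middle of Gapdh. The remaining hypertrophy arrays read 30.8 to 54.5 there. Wild type replicate 2, the lowest of its group for Slc2a4, read 265, but failure replicates 1 and 2 read 38.9 and 24.6. The part of this signal in the Slc2a4 values was not tested. The means were 746 ± 80.3 (SD, n = 5), 542 ± 163 (SD, n = 8) and 627 ± 357 (SD, n = 3). Hypertrophy differed from wild type by -0.52 (SE 0.25, adjusted p = 0.96), and failure differed from wild type by -0.38 (SE 0.32, adjusted p = 0.721). Without hypertrophy replicates 6 and 7 the first was -0.3. Without failure replicate 3 the second was -0.82, and without failure replicate 1 or 2 it was -0.14 or -0.2.

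Slc2a1 read 274, 213, 229, 333 and 214 in wild type, 188 to 312 with a median of 255 in hypertrophy, and 315, 325 and 336 in failure. All 3 failure arrays lay above all 8 hypertrophy arrays, but wild type replicate 4 lay among them. The failure mean of 325 ± 10.7 (SD, n = 3) stood against 253 ± 51.5 (SD, n = 5) in wild type and 254 ± 50.6 (SD, n = 8) in hypertrophy. Failure differed from wild type by 0.39 (SE 0.19, adjusted p = 0.477) and from hypertrophy by 0.38 (SE 0.17, adjusted p = 0.472), and hypertrophy from wild type by 0.0043 (SE 0.15). The log2 ratio of Slc2a4 to Slc2a1 differed by -0.53 in hypertrophy against wild type, and by -0.77 in failure. Failure replicates 1 and 2 stood at -1.22 and -1.14 from the wild type mean and replicate 3 at 0.05.

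Hexokinase phosphorylates glucose and so holds it in the cell; Hk1 is the constitutive form and Hk2 the form of insulin-sensitive muscle. Hk2 read 824, 833, 710, 863 and 703 in wild type, 494 to 1057 with a median of 658 in hypertrophy, and 504, 487 and 572 in failure. All 3 failure arrays were below all wild type arrays, while hypertrophy overlapped both groups. The means were 786 ± 74.7 (SD, n = 5) in wild type, 716 ± 196 (SD, n = 8) in hypertrophy arrays and 521 ± 45.0 (SD, n = 3) in failure. Failure differed from wild type by -0.59 (SE 0.20, adjusted p = 0.279) and from hypertrophy by -0.42 (SE 0.19, adjusted p = 0.47).

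Fitted on the wild type and failure arrays alone, the same Hk2 difference passed the threshold (adjusted p = 0.0284), in a fit that called 2.25% of all probe sets. Hk1 read 392, 347, 546, 414 and 396 in wild type, 164 to 581 with a median of 358 in hypertrophy, and 526, 413 and 354 in failure. Failure and wild type overlap for Hk1, with a difference of 0.038 (SE 0.3), which turns to -0.056 when arrays are scaled to equal medians. The log2 ratio of Hk2 to Hk1 differed by -0.63 in failure against wild type and by 0.049 in hypertrophy.

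Phosphofructokinase commits glucose to glycolysis. Its muscle form Pfkm read 1890, 1508, 1954, 1815 and 2178 in wild type, 1076 to 2383 with a median of 1548 in hypertrophy, and 1093, 1280 and 1765 in failure. Failure replicates 1 and 2 and 4 hypertrophy arrays lay below the wild type range. Failure differed from wild type by -0.46 (SE 0.23, adjusted p = 0.494). The liver form Pfkl read 414, 320, 410, 429 and 467 in wild type, 259 to 450 with a median of 335 in hypertrophy, and 394, 444 and 406 in failure. For Pfkl the failure arrays were inside the wild type range, and hypertrophy differed from wild type by -0.25 (SE 0.13, adjusted p = 0.96). The platelet form Pfkp did not pass the brightness filter, so its values are a description. It read 78.0 to 91.2 in wild type, 52.9 to 135 in hypertrophy and 118, 112 and 140 in failure, and a second Pfkp probe set on the other array type differed by 0.076 (SE 0.16) in failure against wild type. Pfkfb2, the heart form of the bifunctional enzyme that makes and removes the activator of phosphofructokinase, read 531 to 621 in wild type, 495 to 669 in hypertrophy and 558 to 684 in failure, with a difference of 0.099 (SE 0.12) in failure.

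**Figure D1:**
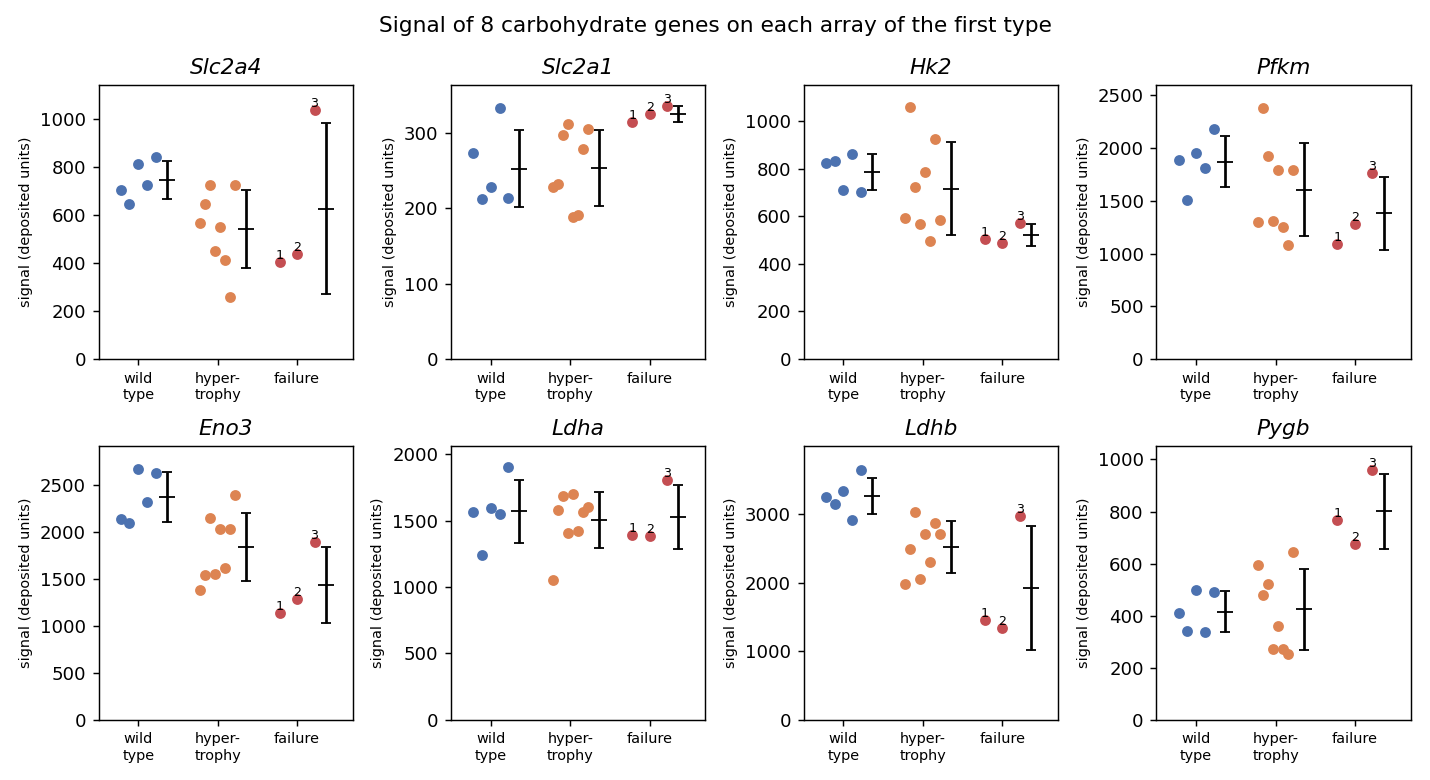
Deposited signal (y axis, linear units from 0) of 8 genes on each array of the first type; points are single arrays by group (x axis), the bar beside them is the mean with its SD, and failure arrays carry their replicate number. Hk2 and Eno3 lie below all wild type arrays in failure and Pygb above them, while failure replicate 3 lies apart from 1 and 2 for Slc2a4 and Ldhb.

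Aldolase splits the phosphorylated sugar into trioses, which the next enzymes carry toward phosphoglycerate. Aldoa, the muscle aldolase, read 4879, 4471, 5056, 5095 and 4852 in wild type, 3466 to 5140 with a median of 4273 in hypertrophy, and 4336, 4624 and 5072 in failure. The 3 groups overlap, with a difference of -0.18 (SE 0.096, adjusted p = 0.96) in hypertrophy and -0.06 (SE 0.12) in failure. A second Aldoa probe set differed by -0.15 (SE 0.082) in hypertrophy and by -0.19 (SE 0.10, adjusted p = 0.552) in failure, where its 3 arrays lay below all wild type arrays. Between failure and hypertrophy the sets gave 0.12 (SE 0.11) and -0.042 (SE 0.097). Aldoc, the brain aldolase, read 134, 144, 139, 149 and 151 in wild type, 125 to 157 with a median of 134 in hypertrophy and 165, 164 and 133 in failure, a difference of 0.096 (SE 0.1) in failure. Its second-type probe set gave -0.70 (SE 0.35, adjusted p = 0.527) in hypertrophy, more than 1 SE away from the -0.064 (SE 0.081) of the first. It gave -0.0061 (SE 0.45) in failure against wild type, and 0.69 (SE 0.41) against hypertrophy where the first gave 0.16 (SE 0.096).

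Tpi1, triose phosphate isomerase, read 1508 to 2316 in wild type, 1174 to 2227 in hypertrophy and 1551 to 2366 in failure. Pgk1, which makes ATP at the first such step of glycolysis, read 763 to 888 in wild type and 726 to 887 in failure, with hypertrophy wider at 387 to 1175. Its difference in hypertrophy was -0.16 (SE 0.18), and -0.36 (SE 0.32) by a second-type probe set. Pgam2, the muscle phosphoglycerate mutase, read 510 to 1122 in wild type and 460, 488 and 875 in failure, with differences of -0.3 (SE 0.26) in hypertrophy and -0.46 (SE 0.33) in failure. None of these 3 genes separated the groups. Pgam1, the other mutase, was too dim to be tested, at 70.2 to 136 in wild type, 7.29 to 123 in hypertrophy and 68.0 to 99.7 in failure.

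Enolase makes phosphoenolpyruvate, and Eno3 is its muscle isoform. Eno3 read 2134, 2091, 2666, 2313 and 2618 in wild type, 1377 to 2392 with a median of 1821 in hypertrophy, and 1131, 1281 and 1893 in failure. All 3 failure arrays were below all 5 wild type arrays, and failure replicate 3 was the nearest to them. The means were 2364 ± 267 (SD, n = 5), 1835 ± 359 (SD, n = 8) and 1435 ± 403 (SD, n = 3). Failure differed from wild type by -0.75 (SE 0.19, adjusted p = 0.133) and hypertrophy from wild type by -0.38 (SE 0.15, adjusted p = 0.96). Failure differed from hypertrophy by -0.37 (SE 0.18, adjusted p = 0.499).

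With arrays scaled to equal medians the Eno3 difference in failure was -0.84 and passed the threshold (adjusted p = 0.0425), as it did without failure replicate 3, at -0.97 (adjusted p = 0.0277). Eno2, the neuronal isoform, read 154, 175, 205, 169 and 151 in wild type, 150 to 233 in hypertrophy and 264, 207 and 169 in failure, with a difference of 0.31 (SE 0.16, adjusted p = 0.517) in failure. Pkm, pyruvate kinase of muscle, read 1309 to 2328 in wild type, 988 to 2175 in hypertrophy and 1462 to 2181 in failure, with differences of -0.27 (SE 0.21) and -0.013 (SE 0.26) from wild type and 0.26 (SE 0.24) between failure and hypertrophy. A second Pkm probe set gave -0.15 (SE 0.16), -0.17 (SE 0.2) and -0.016 (SE 0.19), the last of opposite sign.

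Lactate dehydrogenase is a tetramer of the products of Ldha, the muscle form, and Ldhb, the heart form. Ldhb read 3257, 3155, 3340, 2916 and 3641 in wild type, 1979 to 3031 with a median of 2602 in hypertrophy, and 1461, 1343 and 2972 in failure. Hypertrophy replicate 3 and failure replicate 3 lay inside the wild type range, the other 7 hypertrophy and 2 failure arrays below it. The means were 3262 ± 265 (SD, n = 5), 2520 ± 380 (SD, n = 8) and 1925 ± 908 (SD, n = 3). Hypertrophy differed from wild type by -0.38 (SE 0.16, adjusted p = 0.96), failure from wild type by -0.85 (SE 0.21, adjusted p = 0.117) and failure from hypertrophy by -0.47 (SE 0.19, adjusted p = 0.419).

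Without failure replicate 3, Ldhb differed from wild type by -1.22 (adjusted p = 0.0032) and from hypertrophy by -0.83 (adjusted p = 0.0336), both past the threshold. Failure replicate 3 was also the failure array in which Xist read below Eif2s3y. In wild type replicates 1 and 2, where Xist read above it as in failure replicates 1 and 2, Ldhb was 3257 and 3155. In wild type replicates 3, 4 and 5, of the other kind, it was 3340, 2916 and 3641, against 2972 in failure replicate 3. In hypertrophy, Xist read above Eif2s3y in replicates 1 to 4, where Ldhb was 1979, 2490, 3031 and 2055. In replicates 5 to 8, of the other kind, Ldhb was 2714, 2306, 2865 and 2717. The mean log2 signal of the fibroblast markers reached 9.16 and 9.22 in the first pair of failure arrays and stood at 7.71 in the third, with wild type from 7.70 to 8.08. The atrial markers read 8.96 and 8.73 there but 10.39 in replicate 3, against 7.93 to 9.51 in wild type. Of the atrial markers, Myl4 read 69.8, 64.1 and 730 in failure replicates 1, 2 and 3, against 139 to 507 in wild type. The red cell markers read 9.42, 9.65 and 10.84 in failure replicates 1, 2 and 3, against 9.37 to 9.84 in wild type. The part of these in the Ldhb values was not tested.

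Ldha read 1565, 1239, 1596, 1549 and 1905 in wild type, 1052 to 1701 with a median of 1574 in hypertrophy, and 1390, 1387 and 1807 in failure. Its groups overlap, and its difference in failure of -0.038 (SE 0.16) turns to 0.026 under quantile scaling. The log2 ratio of Ldhb to Ldha differed by -0.32 in hypertrophy against wild type, a description with no test, since the pair was listed with the low Ldhb known. All 8 hypertrophy arrays, at -0.52 to -0.15 from the wild type mean, lay below all 5 wild type arrays, though the nearest pair, hypertrophy replicate 1 and wild type replicate 4, are both -0.15 when rounded. In failure the ratio differed by -0.82, with arrays at -0.99, -1.11 and -0.35. A ratio within an array shows unequal change of the pair and does not depend on the scaling of that array. Without hypertrophy replicates 6 and 7 the difference in hypertrophy was -0.33.

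Lactate leaves the cell through monocarboxylate carriers. Slc16a3, which encodes the carrier of glycolytic muscle, read 113, 112, 115, 120 and 103 in wild type, 73.8 to 121 with a median of 97.5 in hypertrophy and 99.3, 121 and 108 in failure. The groups overlap, with 5 hypertrophy arrays below the wild type range, and hypertrophy differed by -0.22 (SE 0.12, adjusted p = 0.564). Slc16a1, the carrier of oxidative muscle, was too dim to be tested, at 49.2 to 68.9 in wild type, 37.7 to 89.5 in hypertrophy and 60.6, 86.3 and 93.7 in failure.

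Phosphorylase releases glucose 1-phosphate from glycogen; Pygm is its muscle and Pygb its brain isoform. Pygb read 411, 340, 497, 336 and 491 in wild type, 253 to 646 with a median of 419 in hypertrophy, and 766, 677 and 958 in failure. Each failure array was above every wild type and every hypertrophy array. The means were 415 ± 77.9 (SD, n = 5), 424 ± 156 (SD, n = 8) and 800.5 ± 143 (SD, n = 3). Failure differed from wild type by 0.95 (SE 0.29, adjusted p = 0.23) and from hypertrophy by 0.99 (SE 0.27, adjusted p = 0.203), corresponding to 1.94 and 1.99 times, while hypertrophy differed from wild type by -0.038 (SE 0.23). With wild type and failure arrays alone in the fit, the first difference passed the threshold (adjusted p = 0.0258). Failure replicate 3, the highest for Pygb, had fibroblast markers within the wild type range and the highest mean signals of atrial and red cell markers of all arrays, at 10.39 and 10.84. The part of these markers in the Pygb values was not tested.

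Pygm read 1155, 1028, 1231, 1148 and 1248 in wild type, 771 to 1553 with a median of 1091 in hypertrophy, and 770, 746 and 1144 in failure. Failure replicates 1 and 2 were below the wild type range and replicate 3 inside it, a difference of -0.41 (SE 0.21, adjusted p = 0.505). The log2 ratio of Pygm to Pygb differed by -1.37 in failure against wild type (adjusted p = 0.067, exact permutation test, the smallest unadjusted p that 3 against 5 arrays can give being 0.0179) and by -1.32 against hypertrophy (adjusted p = 0.0455, exact permutation test). The failure arrays stood at -1.5, -1.36 and -1.25 from the wild type mean, below every other array, and hypertrophy spread from -1.13 to 0.93. Hypertrophy replicates 1 and 8, at -1.13 and -0.94, were nearest to failure. Without hypertrophy replicates 6 and 7 the difference from hypertrophy was -1.09 (adjusted p = 0.134). Leaving out any 1 of the hypertrophy or failure arrays gave adjusted p-values of 0.0625 to 0.167, with fewer arrangements of the arrays to test against.

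**Figure D2:**
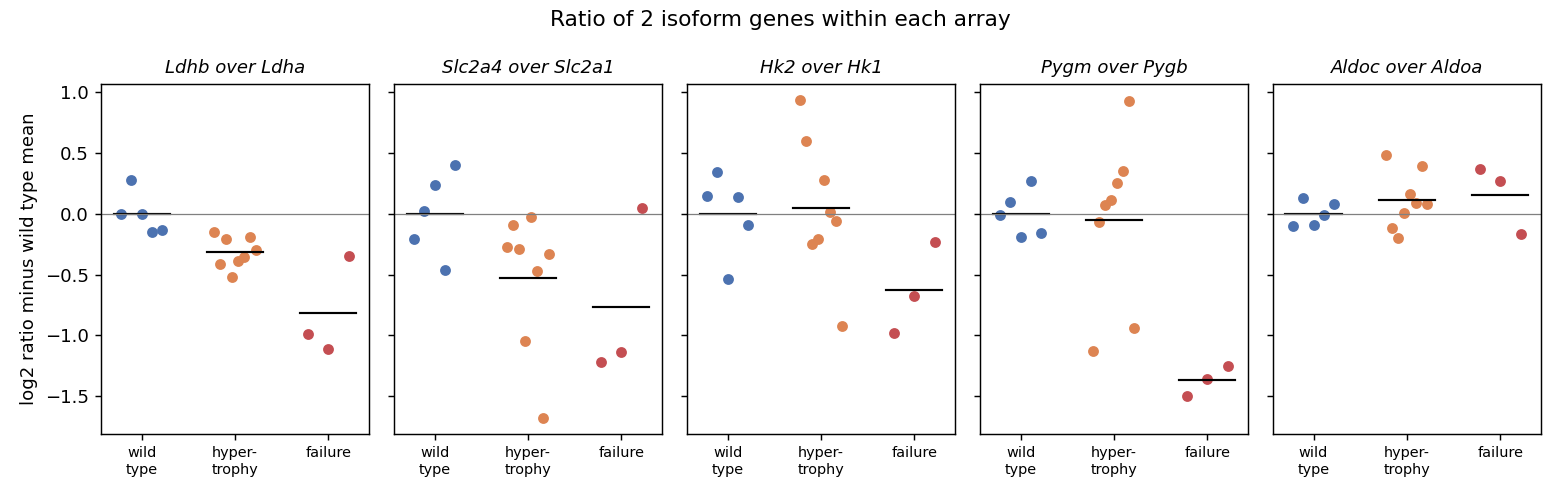
Log2 ratio of each isoform pair on each array of the first type, with the wild type mean subtracted (y axis), by group (x axis); points are arrays and lines are group means. The ratio of Ldhb to Ldha lies at or below -0.15 in all hypertrophy arrays, and that of Pygm to Pygb is lowest in the 3 failure arrays.

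Of the 8 isoform pairs listed, 5 could be computed, and p-values were adjusted over 15 tests. The pairs were listed when the differences of Ldhb, Slc2a4 and Hk2 in these data were known, so the ratios of these 3 genes are given as descriptions. The 15 tests include them. Only Ldhb to Ldha in hypertrophy had a smaller unadjusted p than the called ratio of Pygm to Pygb. An adjustment without the described ratios was not tested. The ratio of Aldoc to Aldoa differed by 0.11 in hypertrophy and 0.16 in failure against wild type, with groups that overlap.

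The other glycogen genes differed little. Gys1, glycogen synthase of muscle, read 400 to 456 in wild type, 284 to 442 in hypertrophy and 377, 384 and 498 in failure, a difference of -0.17 (SE 0.11) in hypertrophy and -0.019 (SE 0.14) in failure. Ugp2, which makes the UDP-glucose that feeds synthesis, differed by -0.17 (SE 0.14) and -0.12 (SE 0.18). Phka1, the muscle regulatory subunit of phosphorylase kinase, read 150, 169, 153, 160 and 167 in wild type, 134 to 198 in hypertrophy and 173, 181 and 181 in failure. Its failure arrays lay above all wild type arrays by a small margin, with a difference of 0.16 (SE 0.11, adjusted p = 0.597), whereas a first-type probe set gave 0.12 (SE 0.22). In hypertrophy Phka1 differed by 0.027 (SE 0.086) and the first-type set by -0.16 (SE 0.17). Between failure and hypertrophy the sets gave 0.13 (SE 0.1) and 0.29 (SE 0.2). Phkb, a further regulatory subunit, differed by 0.14 (SE 0.18) in hypertrophy and 0.059 (SE 0.23) in failure.

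Gbe1, the branching enzyme, read 11.8 to 25.2 over all 16 arrays, below the floor on every one. Gyg, which encodes the glycogenin that primes glycogen, read 65.6 to 130 in wild type, 43.7 to 124 in hypertrophy and 54.0 to 104 in failure, and Phkg1, the catalytic subunit of phosphorylase kinase in muscle, read 32.5 to 53.4, up to 51.8 and 21.4 to 36.5. These 3 were too dim to be tested, and Phkg1 was below the floor on 2 of 5, 3 of 8 and 3 of 3 arrays of the groups.

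Gapdh was seen through the control probe sets. The 3′ set on the first array type read 6045 ± 334 (SD, n = 5) in wild type, 5183 ± 605 (SD, n = 8) in hypertrophy arrays and 5647 ± 508 (SD, n = 3) in failure, from 5540 to 6438, 4104 to 6045 and 5071 to 6031. The ranges overlap.

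Over the whole set, hypertrophy against wild type called 0 of 24 genes by limma, with 12 of 13984 probe sets called, or 0.0858%. The unadjusted p was under 0.05 for 3 of the 24, Slc2a4, Eno3 and Ldhb, against 7.12% of all probe sets tested. Of the 24 differences 20 were negative, 83.3% of them, against 48.0% of all tested probe sets. The median was -0.17 against 0.0074 over all, and no gene separated the groups, beside 0.3% of all probe sets higher and 0.136% lower without overlap. The genes ranged from -0.52 for Slc2a4 to 0.14 for Phkb, with a median SE of 0.15.

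Failure against wild type called 0 of 24, beside 0.25% of all. The unadjusted p was under 0.05 for 4 genes, Hk2, Eno3, Ldhb and Pygb, against 11.4% of all. The groups did not overlap for 2 genes that were higher, Pygb and Phka1, against 9.17% of all probe sets in that direction, and for 2 that were lower, Hk2 and Eno3, against 4.35%. The higher count is near the share over all probe sets. Negative differences made up 62.5% of the 24 and 40.3% of all, and the median was -0.031 against 0.05. The genes ranged from -0.85 for Ldhb to 0.95 for Pygb, with a median SE of 0.2.

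Failure against hypertrophy called 0 of 24, beside 0.0143% of all. The unadjusted p was under 0.05 for 4 genes, Slc2a1, Hk2, Ldhb and Pygb, against 9.36% of all. Slc2a1 and Pygb were higher without overlap, against 1.47% of all probe sets in that direction, and none was lower without overlap, beside 0.686% of all. Here 29.2% of the genes had negative differences, against 41.5% of all, and the median was 0.13 against 0.04. These comparisons share their wild type or transgenic arrays and are not independent of each other.

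**Figure D3:**
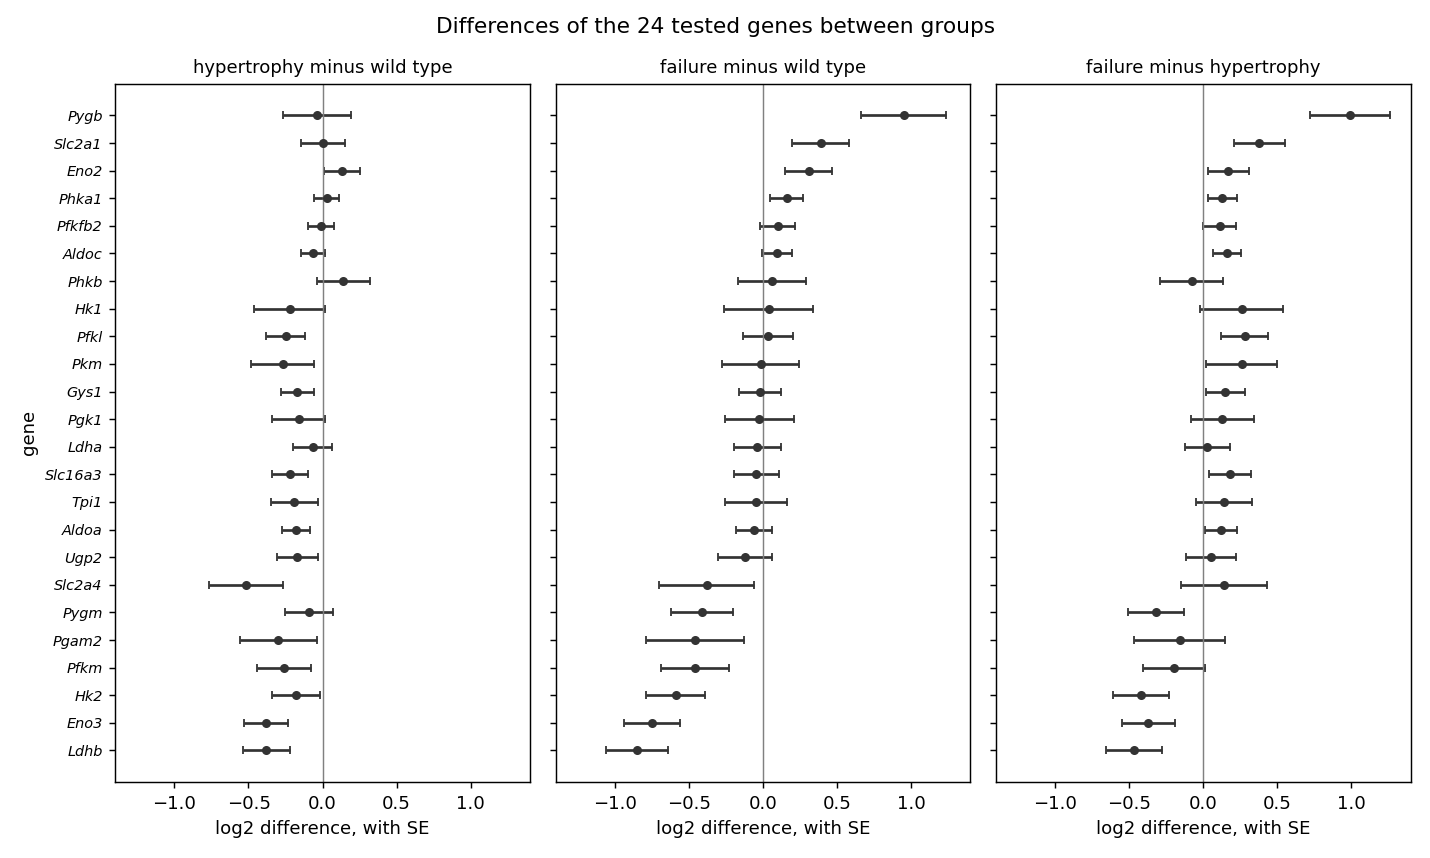
Log2 difference (x axis) of the 24 tested genes (y axis), in order of their value in failure against wild type, for the 3 comparisons; points are limma estimates and bars their SE. In hypertrophy 20 of 24 points lie left of 0, and in failure Ldhb and Eno3 lie furthest to the left and Pygb furthest to the right.

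The hypertrophy arrays differed among themselves more than the wild type arrays did. The SD of the log2 signal was larger in hypertrophy than in wild type for 23 of 24 genes, with medians of 0.29 and 0.16, against 0.25 and 0.17 over all tested probe sets. In failure it was 0.24 against 0.16. Of the 20 genes on the first array type, 16 were below their wild type range in hypertrophy replicate 1, 12 in replicate 4 and 17 in replicate 6. Among all tested probe sets the shares below that range were 47.7%, 19.7% and 28.8% in replicates 1, 4 and 6. In replicates 2, 3, 5 and 8 the genes below it were 7, 1, 8 and 4, beside 30.8%, 9.51%, 17.6% and 13.7% of all. The median distance of the 20 genes from the wild type mean was -0.56, -0.31 and -0.44 in replicates 1, 4 and 6, against -0.19, 0.0039 and -0.027 over all tested probe sets.

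Hypertrophy replicate 6 is one of the arrays with a low Gapdh ratio, and replicates 1 and 4 are not, at 1.09 and 0.868. All of these read high in the opposite-strand control of the middle of Gapdh, at 267 in replicate 1, 225 in replicate 4 and 226 in replicate 6. Hypertrophy replicates 5 and 7 did too, at 419 and 170, against 30.8 to 54.5 in the remaining hypertrophy arrays. Of the wild type arrays only replicate 2 did, at 265, and its median distance was -0.19. That of hypertrophy replicate 5 was -0.11. Replicate 7, with the lowest ratio, had 8 of 20 genes below the wild type range, beside 18.8% of all tested probe sets. The 4 above it were Hk2, Aldoc, Pgk1 and Pygm, beside 41.4% of all, and the median distance was -0.025. Hypertrophy replicate 1, with 16 genes low, was also the lowest array for mean log2 signals of fibroblast markers, at 7.11, of cardiomyocyte markers, at 11.87 against 12.09 to 12.28 in wild type, and of endothelial markers, at 6.26 against 6.92 to 7.27. The fibroblast mean reached 8.69 in hypertrophy replicate 3, and the part of cell makeup or RNA quality in these distances was not tested.

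In failure, 11 of the 20 genes lay below the wild type range in replicate 1 and 9 in replicate 2, against 17.8% and 15.9% of all tested probe sets, with median distances of -0.25 and -0.1. In failure replicate 3 the genes below it were Hk2, Aldoc and Eno3, 3 of 20 beside 19.6% of all. The 6 above it were Slc2a1, Slc2a4, Tpi1, Pygb, Gys1 and Ugp2, beside 21.6% of all. Replicates 1 and 2 each had 3 genes above it, beside 31.4% and 30.6%. Its median distance was 0.076. Pygb was above the wild type range in all 3 failure arrays, and Hk2 and Eno3 were below it in all 3.

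**Figure D4:**
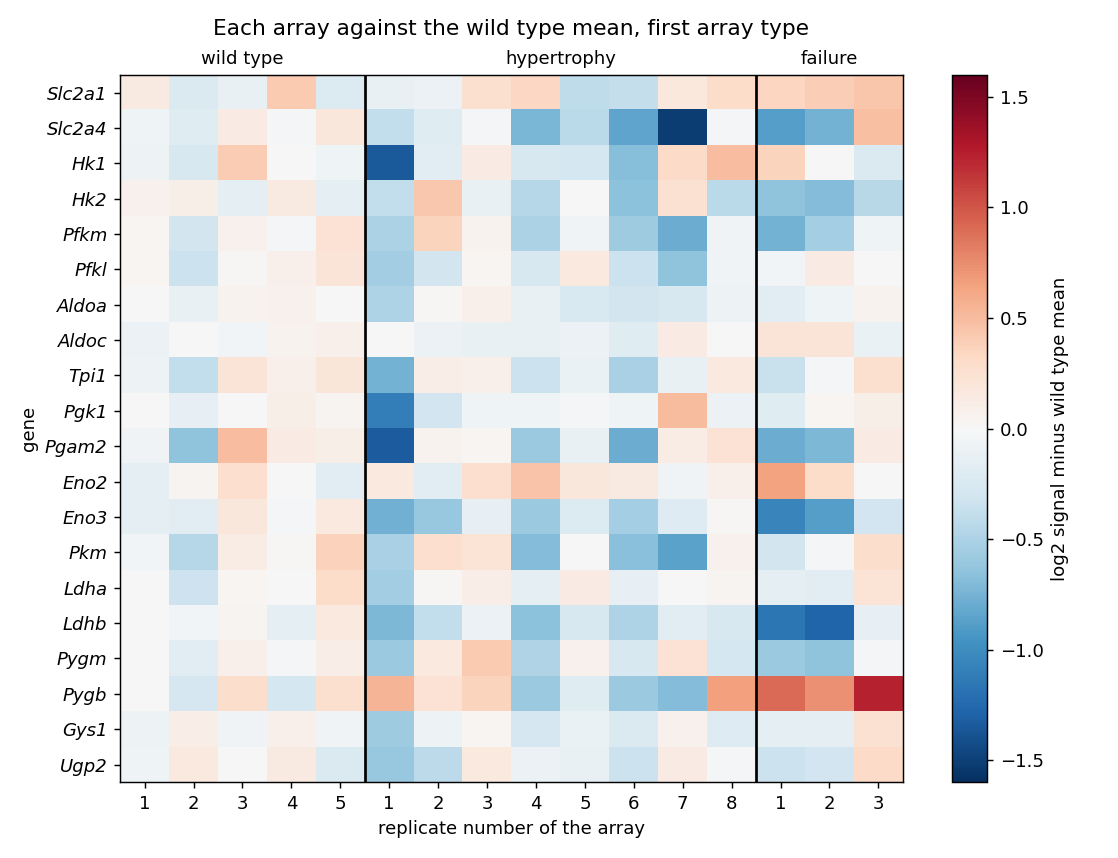
Log2 signal minus the wild type mean (colour, blue for lower and red for higher) of the 20 genes tested on the first array type (rows) on each of 16 arrays (columns, by group and replicate number). Hypertrophy replicates 1, 4 and 6 and failure replicates 1 and 2 are blue over most rows, and Pygb is red in all 3 failure arrays.

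A further 70 genes of sugar metabolism and its regulation were listed by name, of which 59 had a probe set and 42 were tested: other transporters, hexokinases, gluconeogenic and pentose phosphate enzymes, glycogen enzymes and regulators. None of the 42 was called by limma in any comparison, and the unadjusted p was under 0.05 for 2 genes in hypertrophy and 3 in failure relative to wild type, and for 2 between failure and hypertrophy, beside 7.12%, 11.4% and 9.36% of all tested probe sets. Positive differences numbered 25 of 42 in hypertrophy, 25 in failure relative to wild type and 26 relative to hypertrophy, beside 52.0%, 59.7% and 58.5% of all, with medians of 0.018, 0.079 and 0.062.

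The 3 of lowest p in failure against wild type were Gsk3b, Pcx and Rpe. Gsk3b encodes a kinase that inhibits glycogen synthase. It read 96.3 ± 10.5 (SD, n = 5) in wild type, 127 ± 19.0 (SD, n = 8) in hypertrophy arrays and 127 ± 17.5 (SD, n = 3) in failure, with differences of 0.39 (SE 0.11, adjusted p = 0.275) and 0.40 (SE 0.15, adjusted p = 0.264) from wild type. Pcx, pyruvate carboxylase, differed by 0.30 (SE 0.13) and Rpe, an isomerase of the pentose phosphate pathway, by 0.28 (SE 0.13) in failure. Pfkfb3, an isoform of the enzyme pair that sets the activator of phosphofructokinase, was chosen after its values were seen. It read 201 ± 45.5 (SD, n = 5) in wild type, 316 ± 62.9 (SD, n = 8) in hypertrophy arrays and 220 ± 70.6 (SD, n = 3) in failure, with a difference of 0.66 (SE 0.18, adjusted p = 0.911) in hypertrophy.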

How the data were processed

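Total RNA of mouse cardiac ventricle was measured on 2 Affymetrix array types, in 5 wild type, 8 hypertrophy and 3 failure samples each. The deposited values are linear intensities, 1 per probe set by the authors. The scaling and summary method behind them is not given in the labels. Precision is limited by the number of arrays. Values were used as deposited, raised to the 20th percentile of the array type (39.5 and 27.5) and taken to log2, which understates changes of dim genes. Non-control probe sets at or above the median of their array in 3 or more arrays were tested, which left 6980 of 12488 and 7004 of 12477. A single gene symbol was annotated to 10833 first-type probe sets (396 with several, 1193 with none) and to 10581 of the second type (178 and 1652). Symbols were updated through gene identifiers to GRCm38.p6, which changed 12 and 20.

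Each type was fitted with limma 3.58.1 in R 4.3.3 over all 16 arrays, with Benjamini-Hochberg adjustment per type and comparison and a threshold of 0.05. The script was tested on simulated data. Isoform ratios were compared by exact two-sided permutation over arrays. Where a gene's probe sets disagreed by sign or by more than 1 SE, the others are given. For the 6 genes of smallest p in each comparison and the genes of each isoform pair, wild type and failure values are given array by array and hypertrophy by its lowest, median and highest. The genes and lists were chosen with earlier results of these data known. Alternatives were median or quantile scaling, lower and higher floors, no filter or a stricter one, limma's trend and robust options, fits of only the groups compared, a replicate block, and fits without each array or without hypertrophy replicates 6 and 7 together. Figures, drawn with matplotlib 3.10.9, plot the reported values to scale.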

Additional observations from a re-analysis of the deposited data

Results flagged for a closer look

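Ldha in hypertrophy replicate 1 read 1052 signal units, apart from the other 7 hypertrophy arrays at 1410 to 1700. The check covered 60 groups of arrays, wild type and hypertrophy for each of the 30 measured genes, and found this outlying array only. Chance gives about 1 in 20, and whether this is per group or over all 60 was not recorded. Ldha stood at -0.56 from the wild type mean on this array, as did the median of the 20 first-type genes. Hk1, Pgam2 and Pgk1 were further off there, at -1.34, -1.33 and -1.11. Of the 20 genes 16 lay below their wild type range and 1 above, beside 47.7% and 11.7% of all tested probe sets. The Ldha reading is therefore no further down than the genes of that array as a set.

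The opposite-strand 3′ Gapdh control, which the comparisons do not use, read 888 in hypertrophy replicate 7 on the first array type, against 56.6 to 158 in wild type. On the second type it read 1857 in the same replicate, against 1.0 to 262 in wild type. Other hypertrophy arrays were also above wild type, namely replicates 1, 4, 5 and 6 at 163, 174, 328 and 315 on the first type, and replicates 4, 5 and 6 at 396, 443 and 552 on the second. The 158 and 262 were both of wild type replicate 2, and the remaining wild type arrays read 56.6 to 71.0 and 1.0 to 48.4. The opposite-strand control of the middle of Gapdh, first type, read 170 to 419 in hypertrophy replicates 1, 4, 5, 6 and 7 and 265 in wild type replicate 2. All remaining arrays, with those of failure, read 24.6 to 61.9. This trait is thus uneven between the groups, and its part in the differences was not tested. Replicate 7 is the array with the lowest ratio of 5′ to 3′ Gapdh signal.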

How the results depend on the processing

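In hypertrophy against wild type no gene of the set was called under any alternative. In failure against wild type the count of called genes was 1 under median scaling (Eno3), 2 with only the groups compared in the fit (Hk2 and Pygb), and 0 to 2 when each array was left out in turn. Over all probe sets the same fits called 0.522%, 2.25% and, without failure replicate 3, 0.536%. In failure against hypertrophy leaving out arrays gave 0 to 1. Of 1262 alternative values of 52 single differences and ratios, 1201 kept direction and side of the threshold, 14 lost and 6 gained a call, and 41, in 11 results, changed sign. The cause was not tested. Most of the 1201 were results that stayed uncalled. All 14 losses were of the only ratios past the threshold at first, Pygm to Pygb between failure and hypertrophy and the described Ldhb to Ldha in hypertrophy. The latter is a description with no test, so its losses carry no weight. For Pygm to Pygb all losses came with arrays left out, which raises the smallest p the permutation test can give.

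The changes of sign concern differences of at most 0.14 in size in the main fit, though some alternatives gave larger ones. In hypertrophy against wild type Pygb was 0.068 with the replicate block, 0.17 without hypertrophy replicates 6 and 7 and -0.14 to 0.056 with each array left out, Slc2a1 was -0.0097 with the block and -0.052 to 0.11, and Ldha -0.15 to 0.0069. In failure against wild type Hk1 was -0.056 under median scaling and -0.12 to 0.17, and Ldha was 0.026 under quantile scaling, 0.036 with the block and -0.16 to 0.035. In failure against hypertrophy Aldoa was -0.023 under quantile scaling, Ldha -0.062 under median scaling and -0.099 to 0.092, and Slc2a4 -0.079 with the block, -0.083 without hypertrophy replicates 6 and 7 and -0.3 to 0.39. Left-out arrays gave -0.086 to 0.19 for Hk2 over Hk1 and -0.19 to 0.1 for Pygm over Pygb in hypertrophy, and -0.062 to 0.21 for Aldoc over Aldoa in failure against hypertrophy. They gave -0.36 to -0.25 for Ldhb over Ldha in hypertrophy and -1.47 to -1.17 for Pygm over Pygb in failure against hypertrophy; without hypertrophy replicates 6 and 7 these were -0.33 and -1.09, the second no longer past the threshold.

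Among these alternatives Ldhb passed only with failure replicate 3 left out, and Eno3 with it left out or under median scaling. In failure against wild type left-out arrays gave -1.22 to -0.64 for Ldhb, -0.97 to -0.6 for Eno3 and 0.82 to 1.07 for Pygb. Over 22 pairs of samples with the same replicate number, deviations correlated at -0.19 to 0.36, with 5 over 0.1. No pairs of unlike number stand beside these, so they cannot show whether the numbers pair samples. The fit with the replicate block called no gene of the set. Genes at or below the floor, such as Gbe1, could not be compared.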
